A study of Mus musculus with 90 samples.

Results

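The gene expression of melanoma allografts that regressed under PD-L1 antibody was set against that of allografts given control IgG. The arrays are titled with numbers in several ranges, here each a title series, and the comparison took the 31 arrays of these groups in the largest range (53 arrays), out of 90 arrays in all. Of the 31, 17 carry the label Responder and 14 the control IgG label. Each array is labelled as a subcutaneous tumour hybridised to a mouse expression array of biotin-labelled RNA, and each of 18193 genes was read from 1 probe set, the one with the highest mean over all 90 arrays. Responder tumours came from mice given the anti-mouse PD-L1 antibody mIgG1 D265A at 10 mg/kg and were harvested because their volume had gone down. The study's rule was a decrease of 5% or more, and the harvest followed 2 to 12 doses. NonResponder tumours, 14 arrays used here only beside the main comparison, had the same antibody and dose and kept growing. Control IgG tumours had normal IgG at 10 mg/kg, which the design text gives as mouse IgG1 with the same D265A change, and were taken at several times. All 3 groups carry the same genotype label, Hgftg;Cdk4R24C/R24C, an Hgf transgene with a Cdk4 allele that escapes its INK4 inhibitors, and the same strain label, B6.cBrd. The labels used here give neither the number of doses nor the harvest time of a single tumour, and membership of the Responder group was itself decided by outcome. Nothing in them says how the allografts were derived or that each array is a separate animal, so the p-values measure the spread between these arrays.

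PD-L1, encoded by Cd274, is a ligand on tumour and immune cells that engages PD-1 (Pdcd1) on T cells and restrains them. T cells and natural killer (NK) cells that are released from this restraint make interferon gamma, which acts on tumour and stromal cells. The genes it induces include guanylate-binding proteins, immunity-related GTPases, antigen presentation genes, chemokines that attract further T cells, and Cd274 itself. In a bulk tumour, more cells of a type and more RNA per cell cannot be told apart.

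The tumours expressed the melanocyte programme in both groups. Dct, a melanin synthesis enzyme, lay between 14.12 and 14.42 on the log2 scale in Responder arrays and between 14.07 and 14.37 in control IgG arrays, above the mean of 99.99% of all genes. Sox10 and Mitf, transcription factors of the lineage, were above 11 on the log2 scale in all 31 arrays. The median gene lay between 6.91 and 7.12 in Responder arrays and between 6.90 and 7.17 in control IgG arrays. One array stood apart, Responder array 4, whose mean correlation with the other arrays was 0.954. The mean level of 14 skeletal muscle genes passed 8 on the log2 scale in Responder arrays 6 and 14 and in control IgG arrays 1, 3 and 7. The mean level of 6 adipocyte genes passed 7.5 in Responder arrays 2, 3 and 5. Among the tumours of the NonResponder label, array 14 stood apart: its mean over 13 B cell and plasma cell genes was 11.02, against 5.67 to 6.28 in the other 13 NonResponder arrays, and over 5 lymph node stroma genes 9.56, against 5.08 to 5.62. Its mean over 15 melanocyte genes was 8.29, against 9.52 to 9.99 in the others, and results that use NonResponder arrays are given with and without it. Title numbers ran from 223263 to 223337 in the Responder group and from 223234 to 223253 in the control IgG group, so that anything that follows these numbers cannot be told apart from treatment. Each of the 31 arrays was left out in turn, and the fit was repeated without the 5 muscle-rich arrays, without the 3 fat-rich arrays and without these 8 and Responder array 4. These settings and the one without NonResponder array 14 were chosen after the data were seen.

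Regressing tumours differed from control IgG tumours by many small shifts and a short list of large rises. Of 18193 genes, 6752 (37.1%) differed between Responder and control IgG tumours in limma's moderated test at a Benjamini-Hochberg adjusted p under 0.05. Of these, 2724 (15%) were higher in Responder tumours and 4028 (22.1%) were lower. A difference over 2-fold was found for 63 of the called genes, 60 higher and 3 lower. The balance of the calls depended on the level of expression. Among the 4549 genes of lowest mean level 41 were called higher and 1635 lower, whereas among the 4548 of highest level 1117 were called higher and 546 lower. With the dimmer genes left out 72.1% of the 3121 called genes were higher, against 40.3% in the whole table. Each array centred on its median gave 28.4% higher among 7111 calls, and quantile normalization gave 46.1% among 3497. The median gene differed by -0.06 in the whole table, and by -0.10 after median centring. The count was 7391 without the 5 muscle-rich arrays, 3853 without the 3 fat-rich arrays and 3586 without the 9 arrays that stood apart. The groups overlapped for nearly every gene. No gene had all 17 Responder arrays above all 14 control IgG arrays. One gene, Zswim2, chosen for this after its values were seen, had all of them below, at 3.34 to 3.72 (median 3.61) in Responder arrays and 3.77 to 4.44 (median 3.92) in control IgG arrays. These levels lie below 5.01, where the 4549 genes of lowest mean level end. The smallest p belonged to Stmn3, a stathmin family gene known from neurons and also named after its values were seen, at a log2 difference of -0.48 ± 0.06 (SE; adjusted p = 1.36e-05).

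The largest rise was that of a T cell gene. Cd3g, which encodes the gamma chain of CD3, ranged over 5.40 to 9.57 (median 7.96) in the 17 Responder arrays and over 4.83 to 7.57 (median 5.97) in the 14 control IgG arrays, and 10 Responder arrays lay above the highest control IgG array. The mean was 3.54-fold higher, a log2 difference of 1.82 ± 0.38 (SE; adjusted p = 0.00238). Cd8b1, a chain of the coreceptor of cytotoxic T cells, ranged over 6.14 to 9.52 (median 7.83) in Responder arrays and 5.84 to 7.57 (median 6.48) in control IgG arrays, a log2 difference of 1.41 ± 0.30 (adjusted p = 0.00268). Of 14 measured T cell receptor complex and coreceptor genes, 10 rose (71.4%, against 15% of all genes) and 1 fell (7.14%, against 22.1%). The median difference was 0.82 against -0.06 over all genes. In each of the 31 fits that left out 1 array 9 of the 10 rises were called. Cd5, a regulator of T cell receptor signalling, was also among the 10 (1.20 ± 0.27, adjusted p = 0.00342). The fall was that of Zap70, the kinase that docks on the receptor chains, at -0.24 ± 0.05 on the probe set used. That call depends on the probe set: its difference was 0.60 on the probe set of highest spread and 0.20 on the mean of its 3 probe sets, both called higher.

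**Figure D1:**
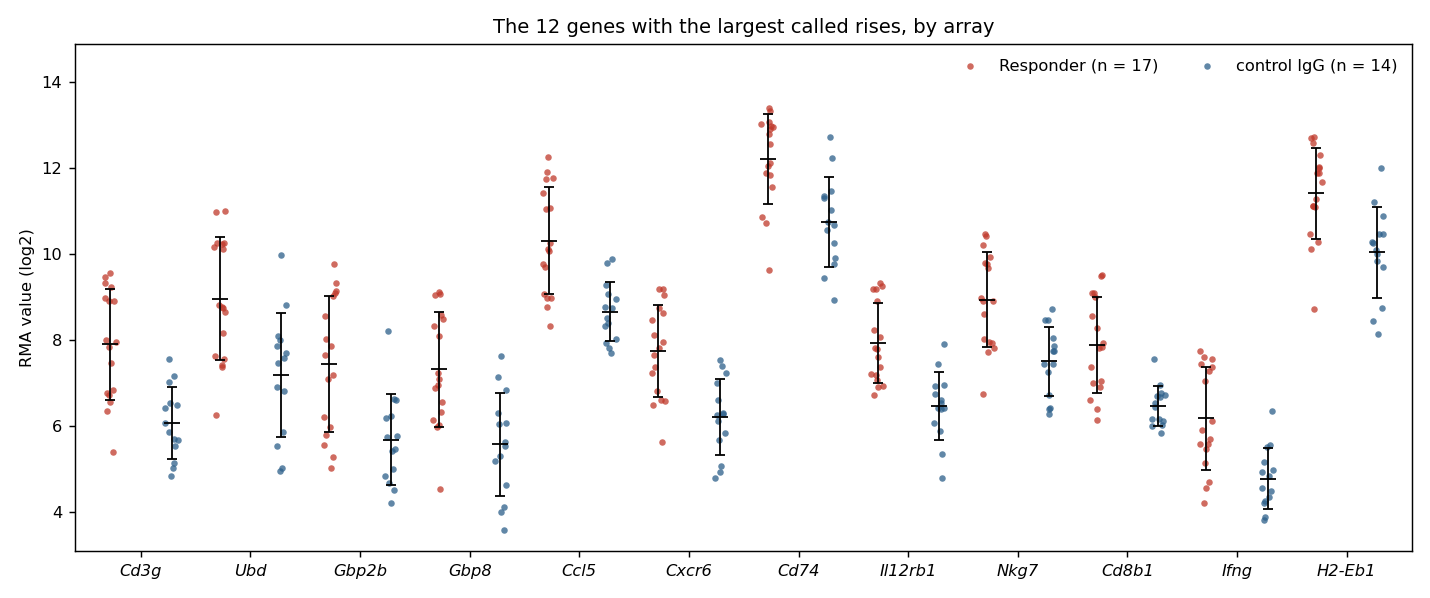
RMA values (log2, vertical axis) of the 12 genes with the largest called rises, with 1 point per array, Responder (n = 17) in red left of control IgG (n = 14) in blue, and bars for the mean ± SD. The Responder arrays spread widely: for Cd3g they span 5.40 to 9.57 (median 7.96), from within the control IgG range to well above it.

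Genes of killing and of the type 1 T cell programme rose with the receptor genes. Nkg7, a cytotoxic granule membrane protein, reached 6.75 to 10.46 (median 8.92) in Responder arrays and 6.29 to 8.73 (median 7.59) in control IgG arrays, and 10 of 17 Responder arrays were above all controls. Its log2 difference was 1.43 ± 0.34 (adjusted p = 0.00434). Of 15 measured cytotoxic granule and NK cell genes, 10 rose (66.7%, against 15% of all genes) and 1 fell (6.67%, against 22.1%). The median difference was 0.83, and 8 of the rises were called in every fit that left out 1 array. Among them were Cst7, which encodes cystatin F (1.22 ± 0.27), the granzyme gene Gzmk (1.19 ± 0.28) and the perforin gene Prf1 (0.91 ± 0.27; adjusted p = 0.0123). The fall belonged to another granzyme, Gzmc. It lay at 4.53 to 6.61 (median 5.58) in Responder arrays and 5.12 to 8.56 (median 6.41) in control IgG arrays (-0.81 ± 0.27, adjusted p = 0.0248), and missed the threshold after quantile normalization (adjusted p = 0.0548) and without control IgG array 11 (adjusted p = 0.0505).

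Ifng itself, the gene of interferon gamma, was at 4.20 to 7.76 (median 5.92) in Responder arrays and 3.82 to 6.35 (median 4.70) in control IgG arrays. It was 2.63-fold higher (1.40 ± 0.35, adjusted p = 0.0055), with 7 Responder arrays above every control IgG array and the others inside the control range. Il12rb1, a subunit of the interleukin 12 receptor that drives type 1 responses, ranged over 6.72 to 9.32 (median 7.79) in Responder arrays and 4.79 to 7.90 (median 6.48) in control IgG arrays (1.47 ± 0.30, adjusted p = 0.00196). Cxcr6, a chemokine receptor of tissue-resident and effector T cells, ranged over 5.64 to 9.19 (median 7.82) in Responder arrays and 4.80 to 7.53 (median 6.27) in control IgG arrays (1.52 ± 0.34, adjusted p = 0.00342). Of 11 measured type 1 regulators 8 rose (72.7%, against 15% of all genes) and none fell. All 8 were called in every fit that left out 1 array. They included Tbx21, which encodes the lineage factor T-bet (1.30 ± 0.30), and Stat4, which carries the interleukin 12 signal (0.80 ± 0.17).

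The target of the treatment and its receptor were both higher in the regressing tumours. Pdcd1 was at 5.10 to 7.92 (median 6.17) in Responder arrays and 4.91 to 6.05 (median 5.22) in control IgG arrays. That was a log2 difference of 1.001 (SE 0.24, adjusted p = 0.00433), and 11 Responder arrays exceeded the highest control. Cd274 was at 8.09 to 10.03 (median 8.75) in Responder arrays and 8.02 to 9.12 (median 8.47) in control IgG arrays, a smaller difference of 0.48 ± 0.17 (adjusted p = 0.0283) that missed the threshold after quantile normalization (adjusted p = 0.0813) and without the 3 fat-rich arrays (adjusted p = 0.0535). Pdcd1lg2, the second PD-1 ligand, rose by 0.51 ± 0.18 (adjusted p = 0.0324). It lost the call without control IgG array 10 or without Responder array 5, 7 or 10 (highest adjusted p = 0.0526), without the 3 fat-rich arrays (adjusted p = 0.0716), without the 9 arrays that stood apart (adjusted p = 0.105) and with the spread of the 53 arrays (adjusted p = 0.065). Cd80, which binds both CD28 and PD-L1, was at 4.33 to 4.88 (median 4.65) in Responder arrays and 4.64 to 4.95 (median 4.79) in control IgG arrays, a fall of 0.15 on its brightest probe set that was absent on the probe set of highest spread (0.01).

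Inhibitory receptors and regulatory T cell markers had 9 rises (64.3%, against 15% of all genes) and 1 fall (7.14%, against 22.1%) among 14 measured genes. In every fit that left out 1 array 5 of the rises were called. Havcr2, which encodes TIM-3, was higher by 0.98 ± 0.26 (adjusted p = 0.00756) and Lag3 by 0.81 ± 0.21 (adjusted p = 0.00622). Both are receptors of chronically stimulated T cells. Ikzf2, which encodes the factor Helios of regulatory T cells, was at 7.81 to 8.49 (median 8.31) in Responder arrays and 7.44 to 8.21 (median 7.89) in control IgG arrays, and 13 of 17 Responder arrays were above all controls (0.40 ± 0.08, adjusted p = 0.00191). Foxp3, the lineage factor of regulatory T cells, did not pass the test (-0.03, adjusted p = 0.75). Nor did Il2ra, the interleukin 2 receptor alpha chain (-0.09, adjusted p = 0.165), or Tnfrsf9, a costimulatory receptor (-0.37, adjusted p = 0.0907). Other members of the list did: Ctla4 rose by 0.45 (adjusted p = 0.0184), Tnfrsf18 by 0.50 (adjusted p = 0.028) and Icos by 0.37 (adjusted p = 0.0342). Cd160 fell by 0.27 on the probe set used, yet was higher by 0.29 on the probe set of highest spread and by 0.06 on the mean of its probe sets.

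T cell attracting chemokines moved the same way. Ccl5, made by activated T and NK cells, was at 8.33 to 12.26 (median 10.11) in Responder arrays and 7.71 to 9.89 (median 8.63) in control IgG arrays, 3.14-fold higher (1.65 ± 0.36, adjusted p = 0.00281). Cxcl9, an interferon gamma induced ligand of CXCR3, was at 9.30 to 12.62 (median 11.42) in Responder arrays and 7.89 to 11.45 (median 10.36) in control IgG arrays (1.14 ± 0.37, adjusted p = 0.0196). Another CXCR3 ligand, Cxcl10, rose by 0.58 ± 0.18, and the chemokine gene Ccl3 by 1.30 ± 0.32. In all 5 of 9 measured genes rose (55.6%, against 15% of all genes) and none fell, each rise in every fit that left out 1 array. Of 7 monocyte chemokine genes 1 was called, higher (14.3%, near the 15% of all genes), and no call held in every such fit. Ccl6 was at 8.80 to 12.57 (median 10.55) in Responder arrays and 9.83 to 12.57 (median 11.33) in control IgG arrays (-0.74 ± 0.32, adjusted p = 0.0654), and passed the threshold, lower, without Responder array 4 (adjusted p = 0.0312).

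Genes of interferon gamma inducible GTPases rose. All 6 measured guanylate-binding protein genes, of 11 listed, were called higher in Responder tumours (100%, against 15% of all genes). They encode GTPases that attack vacuoles of intracellular pathogens, and their median difference was 0.84. All 6 were also called in each of the 31 fits that left out 1 array, after quantile normalization and without the 9 arrays that stood apart. The promoter windows of those with a match to the interferon-stimulated response element, shown because these genes moved together, are given here as 60 bases of RefSeq sequence in the GRCm38.p6 build, on the gene's strand, with the match in capitals:
Gbp2: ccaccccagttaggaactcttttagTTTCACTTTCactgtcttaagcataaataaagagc
Gbp2b: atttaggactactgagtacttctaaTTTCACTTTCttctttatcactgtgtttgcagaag
Gbp3: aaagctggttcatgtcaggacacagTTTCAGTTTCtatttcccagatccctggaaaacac
Gbp7: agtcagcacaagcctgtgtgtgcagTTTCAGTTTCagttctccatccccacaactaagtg
Igtp: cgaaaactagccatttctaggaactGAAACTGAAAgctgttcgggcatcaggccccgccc
Irgm1: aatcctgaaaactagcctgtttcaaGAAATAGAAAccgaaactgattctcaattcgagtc
Irgm2: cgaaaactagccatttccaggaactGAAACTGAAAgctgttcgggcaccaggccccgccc
The motif shown is GAAANNGAAA, searched on either strand, so the matches in the Gbp genes read as its reverse complement. Gbp3 and Irgm1 each held a second match, starting at base -39 and -24, which overlaps the first and is only partly in capitals. The windows lie at chr3:142620579-142620638, chr3:142594685-142594744, chr3:142559974-142560033 and chr3:142530258-142530317 for the Gbp genes, and at chr11:58199497-58199556, chr11:48871416-48871475 and chr11:58214888-58214947 for Igtp, Irgm1 and Irgm2. All are within the 250 bases before and 50 bases after the gene's annotated start. Of the 6 guanylate-binding protein genes, 4 had such a RefSeq window and all 4 held the motif. It was also in 4 of 8 genes with a window in the list of immunity-related GTPases and other interferon gamma targets. The list of type I interferon stimulated genes, described below, had it in 6 of 10 (60%). Class I and class II antigen presentation genes had it in 3 of 10 and 1 of 7. The share over the 14452 genes of the array with a window was 3.63%, over the called rises 4.51% and over the called falls 3.11%. A second motif searched, TTCNNNGAA, was in 1 of the 4 guanylate-binding protein genes and 5 of the 8 interferon gamma targets. It was in 2 of the 10 type I genes and in 8.57% of all genes. A match is a description of the letters only.

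Gbp2b, with a match starting at base -137 relative to its start, ranged over 5.02 to 9.77 (median 7.64) in Responder arrays and 4.22 to 8.22 (median 5.62) in control IgG arrays (1.76 ± 0.47, adjusted p = 0.00796). Gbp8 ranged over 4.53 to 9.13 (median 7.09) in Responder arrays and 3.59 to 7.63 (median 5.58) in control IgG arrays (1.75 ± 0.44, adjusted p = 0.00591). Other members differed by smaller amounts: Gbp2 by 0.89 ± 0.25, Gbp3 by 0.60 ± 0.13 and Gbp7 by 0.53 ± 0.17. The family's mean passed every control IgG array in the same 7 Responder arrays, 1, 3, 4, 5, 6, 7 and 10.

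All 12 measured genes, of 15 listed, of the immunity-related GTPases and other interferon gamma targets rose (100%, against 15% of all genes). The median difference was 0.67, and 9 of them were called in every fit that left out 1 array. Ubd encodes a ubiquitin-like modifier, FAT10, that interferon gamma and TNF induce. It was at 6.25 to 11.01 (median 8.77) in Responder arrays and 4.95 to 9.99 (median 7.53) in control IgG arrays, 3.44-fold higher (1.78 ± 0.50, adjusted p = 0.00994). Irf8, a transcription factor of myeloid cells and of the interferon response, rose by 1.05 ± 0.27. The GTPase genes Igtp, Irgm1 and Irgm2 rose by 0.79 ± 0.21, 0.63 ± 0.15 and 0.66 ± 0.18, and at least 6 Responder arrays were above all controls for each.

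Genes better known as targets of type I interferon gave 6 calls. Of the 14 measured these 6 rose (42.9%, against 15% of all genes) and none fell. The median difference was 0.30, and 2 were called in every fit that left out 1 array. After quantile normalization 1 was called. Oasl2, a relative of the antiviral oligoadenylate synthetases, was at 9.53 to 10.84 (median 10.38) in Responder arrays and 8.81 to 10.64 (median 9.57) in control IgG arrays (0.64 ± 0.17, adjusted p = 0.00705). For the mean level of this list no Responder array lay above the highest control IgG array. For the list of interferon gamma targets 8 of 17 did. Whether the 2 lists differ was not tested.

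Antigen presentation rose on both arms. In class II, 8 of 9 measured genes rose (88.9%, against 15% of all genes) and none fell. The median difference of 1.08 was the largest of the 42 lists. Cd74, the invariant chain, was at 9.64 to 13.40 (median 12.57) in Responder arrays and 8.93 to 12.73 (median 10.71) in control IgG arrays (1.48 ± 0.36, adjusted p = 0.00519). H2-Eb1, a class II beta chain, was at 8.72 to 12.72 (median 11.67) in Responder arrays and 8.15 to 12.01 (median 10.17) in control IgG arrays (1.38 ± 0.37, adjusted p = 0.00779). The alpha chain gene H2-Aa rose by 1.36 ± 0.34 and H2-DMa, which helps to load peptides, by 1.08 ± 0.29. Of the 8 rises 7 were called in every fit that left out 1 array, and 5 genes were called without the 3 fat-rich arrays.

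In class I, 9 of 12 measured genes rose (75%, against 15% of all genes) and none fell, with a median difference of 0.32. Nlrc5, the transactivator of class I genes, was at 10.30 to 11.47 (median 10.88) in Responder arrays and 9.62 to 10.72 (median 10.28) in control IgG arrays (0.62 ± 0.12, adjusted p = 0.00168). Tap2, a subunit of the peptide transporter, rose by 0.81 ± 0.22. H2-K1, a classical heavy chain, rose by 0.30 ± 0.08, and B2m, the light chain, by 0.15 ± 0.04. B2m was at 13.66 to 14.12 (median 13.91) in Responder arrays and 13.62 to 13.89 (median 13.76) in control IgG arrays.

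**Figure D2:**
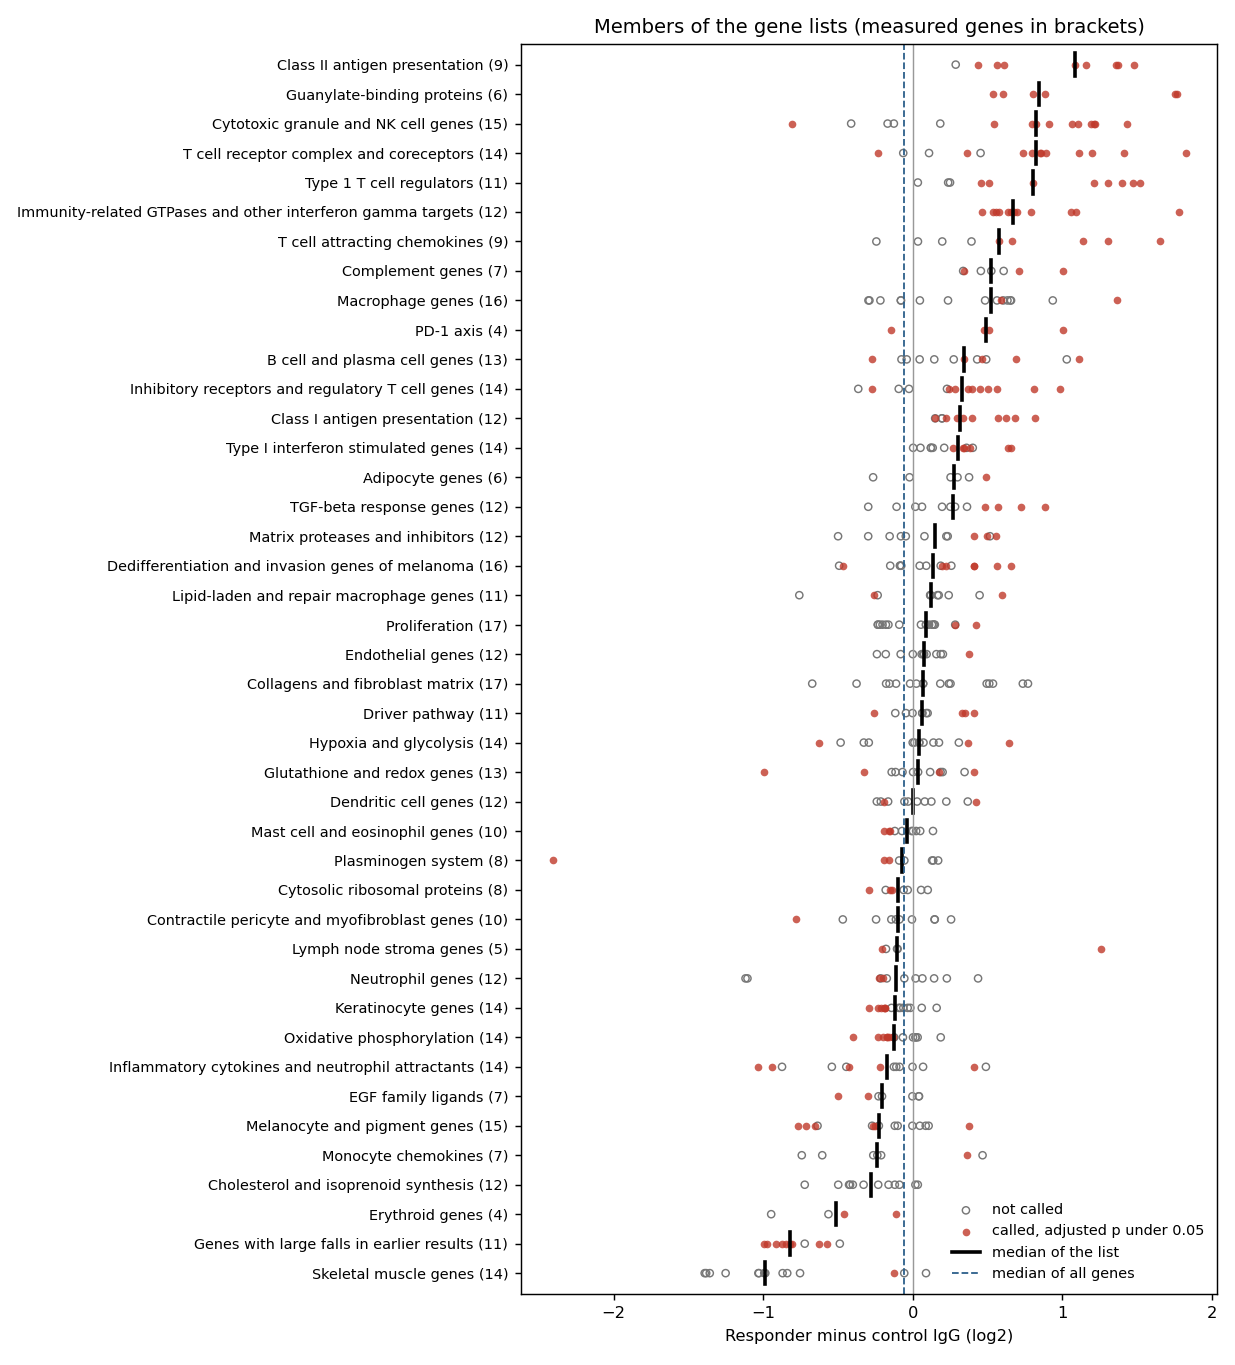
Log2 differences (Responder minus control IgG, horizontal axis) of every measured member of the 42 gene lists, in rows ordered by their median. Filled points are called at an adjusted p under 0.05, open points are not, black ticks are list medians and the dashed line is the median of all genes. Class II antigen presentation (median 1.08) and the guanylate-binding proteins (0.84) are at the top, skeletal muscle genes (-0.99) at the bottom.

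Macrophage genes were called higher at a share near that of all genes. Of 16 macrophage genes 2 rose (12.5%, against 15% of all genes) and none fell (0%, against 22.1%). Their median difference was 0.52 against -0.06 over all genes. Slamf8, a receptor of activated macrophages, rose by 1.36 ± 0.44 (adjusted p = 0.0198) and Mertk, a receptor for engulfing dead cells, by 0.59 ± 0.20 (adjusted p = 0.0247). Without the 3 fat-rich arrays neither was called (adjusted p = 0.0513 and 0.0866). Csf1r, the receptor for the macrophage growth factor, was at 8.83 to 13.10 (median 10.63) in Responder arrays and 8.93 to 12.51 (median 9.54) in control IgG arrays (0.94 ± 0.39, adjusted p = 0.0583). C1qa, a complement gene of macrophages, differed by 0.66 ± 0.27 (adjusted p = 0.0574). Both passed without the 5 muscle-rich arrays (adjusted p = 0.011 for each), where 9 of the 16 genes did, and in 7 of the 31 fits that left out 1 array, among them those without control IgG array 1 or 7. Control IgG array 7 had the highest macrophage mean of its group, 10.86, and Responder array 4 the highest of all, 11.31.

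Of 7 complement genes 3 rose (42.9%, against 15% of all genes). Serping1, which encodes the C1 inhibitor, was at 9.36 to 12.71 (median 11.10) in Responder arrays and 8.40 to 11.84 (median 9.81) in control IgG arrays (1.01 ± 0.32, adjusted p = 0.0186), and C2 rose by 0.34 ± 0.09. Of 12 dendritic cell genes 1 rose and 1 fell (8.33% each, against 15% and 22.1% of all genes). The rise was Fscn1 of mature dendritic cells (0.42 ± 0.12) and the fall Siglech of plasmacytoid cells (-0.19 ± 0.06). Siglech was not called after quantile normalization (adjusted p = 0.0786) or in the fit of 90 arrays (adjusted p = 0.18). Fscn1 was not called on the mean of its probe sets (adjusted p = 0.195). Of 13 B cell and plasma cell genes 4 rose (30.8%) and 1 fell (7.69%, against 22.1% of all genes). None of these rises was called without the 3 fat-rich arrays. The fall was that of Pax5, the B lineage factor, at 5.31 to 6.04 (median 5.62) in Responder arrays and 5.71 to 6.15 (median 5.87) in control IgG arrays (-0.27 ± 0.06), in the low range where most called genes are lower. Ltb, the lymphotoxin gene that lymphocytes make, rose by 1.26 ± 0.29 (adjusted p = 0.00398). Madcam1, an addressin of lymphoid vessels in the same list of 5 genes, fell by 0.21, and differed by -0.10 with no call after quantile normalization (adjusted p = 0.269).

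The regressing tumours differed widely among themselves. The mean level of the T cell receptor list was above the highest control IgG array (6.90) in 9 of 17 Responder arrays and reached 7.97. Responder arrays 1, 3, 4, 5, 6, 7 and 10 were above every control for the cytotoxic, PD-1 axis, T cell chemokine, guanylate-binding protein and class II lists alike. The other 10 Responder arrays were within the control range on all 5 of these lists. The 7 high arrays included the array that stood apart (4), 2 of the 3 fat-rich arrays (3 and 5) and 1 of the 2 muscle-rich ones (6). The control IgG group varied too, and its array 7 had the highest class I, collagen and endothelial means of the group. What these arrays contribute to each count is given by the fits without them.

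**Figure D3:**
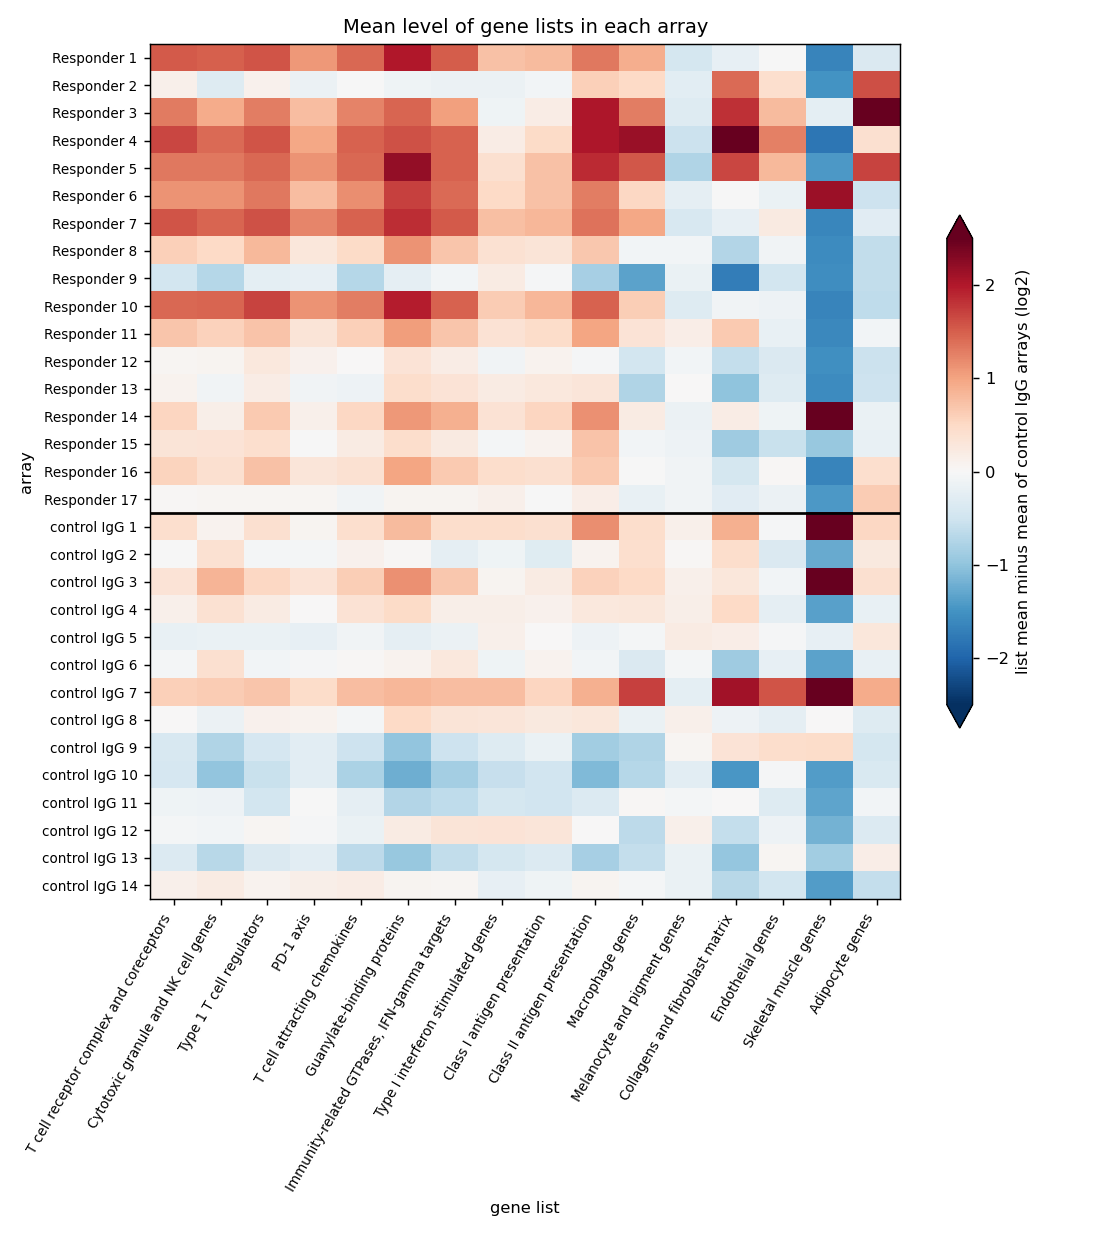
Mean log2 level of 16 gene lists (columns) in each array (rows), with the 17 Responder arrays above the black line and the 14 control IgG arrays below it, as the difference from the mean of the control IgG arrays. Red is higher and blue lower, and values beyond 2.5 either way have the end colours. Responder arrays 1, 3, 4, 5, 6, 7 and 10 are red across the T cell and interferon lists, and the skeletal muscle column is high in 2 Responder and 3 control IgG arrays.

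Within the Responder group the level of Cd3g followed that of Cd274 across the 17 arrays (Pearson r = 0.876, Spearman rho = 0.848, permutation p adjusted over 10 relations = 6.67e-05 and 0.0003). Without the 2 arrays farthest from the median Cd3g level r was 0.913. In the 14 control IgG arrays r was 0.613 (rho = 0.446, adjusted permutation p = 0.0274 and 0.14), and 0.50 without the farthest 2 (adjusted permutation p = 0.163), past the threshold no longer. Ifng and Ubd were related in both groups, with r = 0.943 (rho = 0.826) in Responder arrays and r = 0.912 (rho = 0.921) in control IgG arrays, each with an adjusted permutation p of 6.67e-05 for r. Without the farthest 2 arrays these were 0.938 and 0.837. Cd3g ran against Pmel in the Responder arrays (r = -0.619, rho = -0.623, adjusted permutation p = 0.0163 and 0.022; r = -0.601 without the farthest 2). In the control IgG arrays r was -0.188 (rho = -0.0022, adjusted permutation p = 0.514). Cd3g and Col1a1, a fibrillar collagen gene, had r = 0.605 (rho = 0.564, adjusted permutation p = 0.0192 and 0.039) in Responder arrays and r = 0.637 (rho = 0.525, adjusted permutation p = 0.0232 and 0.0934) in control IgG arrays. Neither passed the test without the farthest 2 arrays (r = 0.547 and 0.349, adjusted permutation p = 0.072 and 0.324). The correlation of Cd3g and Serpinb2 passed the test in neither group (r = 0.325 in Responder and -0.489 in control IgG arrays, rho = 0.191 and -0.503, adjusted permutation p = 0.222 and 0.0926 for r). The widest gap between neighbouring Cd3g levels was 22.9% of their range in the Responder group and 18% in the control IgG group, and that between Ifng levels 25.9% and 31.2%.

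The largest fall was that of Serpinb2, followed by Ppbp and Cxcl5, whose NonResponder values were also low although no NonResponder difference from control IgG passed the test. Serpinb2, which encodes plasminogen activator inhibitor 2, was at 3.46 to 7.76 (median 4.33) in Responder arrays, 3.66 to 7.53 (median 4.45) in NonResponder arrays and 4.35 to 11.02 (median 6.65) in control IgG arrays. It was 5.31-fold lower in Responder than in control IgG tumours (-2.41 ± 0.58, adjusted p = 0.00477), and 9 Responder arrays were below the lowest control. NonResponder tumours differed from control IgG by -2.48, and the difference between Responder and NonResponder tumours was 0.07 with a 95% interval of -1.09 to 1.22. Of 8 measured plasminogen system genes 3 fell (37.5%, against 22.1% of all genes) and none rose. After quantile normalization 1 of the 8 was called, lower. Serpinf2, the plasmin inhibitor, differed by -0.19 ± 0.05 and was not called there (adjusted p = 0.0772). Plau fell by 0.16 on the probe set used (adjusted p = 0.0168), while its other probe set differed by 0.006 (adjusted p = 0.979).

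Ppbp, a platelet chemokine, was at 3.80 to 6.51 (median 4.89) in Responder arrays, 3.92 to 6.31 (median 4.61) in NonResponder arrays and 4.32 to 9.01 (median 5.69) in control IgG arrays (-1.04 ± 0.37, adjusted p = 0.0307). Cxcl5, a neutrophil attractant, was at 2.92 to 6.88 (median 3.47) in Responder arrays, 3.07 to 6.02 (median 3.46) in NonResponder arrays and 3.14 to 7.02 (median 4.47) in control IgG arrays (-1.03 ± 0.38, adjusted p = 0.0342). Il6, an inflammatory cytokine, was at 3.73 to 6.74 (median 4.58) in Responder arrays, 3.90 to 6.55 (median 4.62) in NonResponder arrays and 3.84 to 7.85 (median 5.63) in control IgG arrays (-0.94 ± 0.35, adjusted p = 0.0373). The highest array of each gene was a control IgG array, and the lowest control IgG arrays lay within the range of the Responder arrays. After quantile normalization none of the 3 was called (adjusted p = 0.0621, 0.0681 and 0.0707). Left-out arrays ended the call of Ppbp in 2 of 31 fits (control IgG 2 or 10), of Cxcl5 in 5 (control IgG 2, 3, 7, 9 or 11) and of Il6 in 13, with adjusted p up to 0.0551, 0.0641 and 0.0752. Of 14 inflammatory cytokine and neutrophil attractant genes 4 fell (28.6%, against 22.1% of all genes) and 1 rose (7.14%, against 15%), shares near those of the whole table for the falls, and 1 fall and the rise were called in every fit that left out 1 array. Cxcl1, another neutrophil attractant, differed by -0.42 ± 0.09 (adjusted p = 0.00199). The rise was Tnf, at 5.81 to 7.12 (median 6.13) in Responder arrays and 5.65 to 6.16 (median 5.94) in control IgG arrays (0.41 ± 0.12, adjusted p = 0.011). Neutrophil genes had 2 falls among 12 (16.7%, against 22.1% of all genes), and neither was called in every fit. S100a9, a neutrophil alarmin, differed by -1.12 ± 0.46 (adjusted p = 0.0523), and passed without Responder array 4 (adjusted p = 0.018).

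The remaining named falls with low values in both treated groups were Dmkn, Cbr2 and Ackr3. Dmkn, a secreted protein of skin, was at 4.02 to 7.29 (median 4.54) in Responder arrays, 4.19 to 6.16 (median 4.62) in NonResponder arrays and 4.84 to 8.46 (median 5.01) in control IgG arrays, and 15 of 17 Responder arrays were below the lowest control (-0.89 ± 0.31, adjusted p = 0.0267). Cbr2, a carbonyl reductase, differed by -0.89 ± 0.32 (adjusted p = 0.0305), with an adjusted p of 0.0578 without control IgG array 2. Ackr3, a scavenging chemokine receptor, differed by -0.86 ± 0.33 (adjusted p = 0.042) and lost the call in 16 of the 31 fits that left out 1 array of either group (adjusted p up to 0.0835). Without the 5 muscle-rich arrays Cxcl5, Cbr2 and Ackr3 were not called (adjusted p = 0.103, 0.125 and 0.0599), and without the 3 fat-rich arrays Ppbp, Il6 and Dmkn were not (adjusted p = 0.058, 0.107 and 0.0632).

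**Figure D4:**
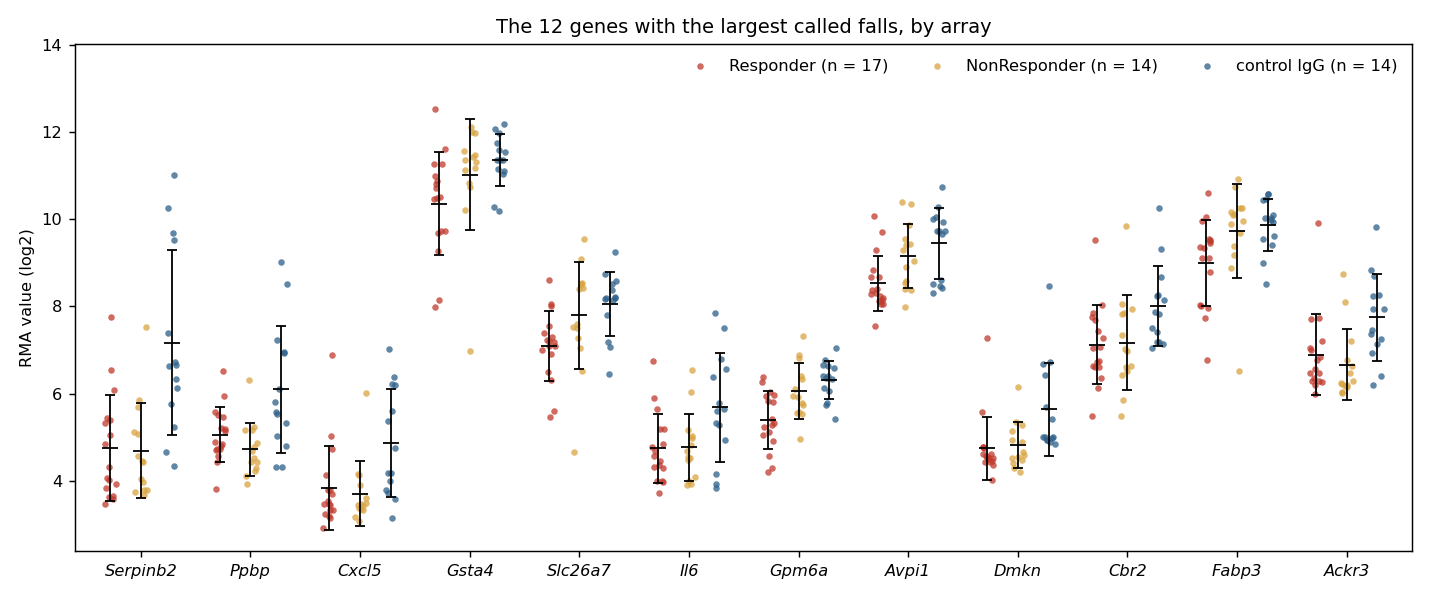
RMA values (log2, vertical axis) of the 12 genes with the largest called falls, with 1 point per array for Responder (red, n = 17), NonResponder (yellow, n = 14) and control IgG (blue, n = 14) from left to right, and bars for the mean ± SD. For Serpinb2 both treated groups lie mostly below 6 while control IgG arrays reach 11.02.

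A second set of falls had smaller NonResponder differences. Gsta4, a glutathione transferase that clears lipid peroxidation products, was at 7.98 to 12.54 (median 10.52) in Responder arrays, 6.97 to 12.12 (median 11.34) in NonResponder arrays and 10.18 to 12.19 (median 11.36) in control IgG arrays (-0.99 ± 0.33, adjusted p = 0.0227). Slc26a7, an anion exchanger, was at 5.46 to 8.60 (median 7.18) in Responder arrays and 6.46 to 9.25 (median 8.20) in control IgG arrays (-0.97 ± 0.27, adjusted p = 0.00902). Gpm6a, a membrane glycoprotein known from neurons, was at 4.20 to 6.38 (median 5.33) in Responder arrays and 5.43 to 7.06 (median 6.38) in control IgG arrays, with 10 Responder arrays below the lowest control (-0.92 ± 0.20, adjusted p = 0.00274). Avpi1, named for its induction by vasopressin, fell by 0.92 (adjusted p = 0.00868), and Fabp3, a fatty acid carrier, by 0.88 (adjusted p = 0.0215). In NonResponder tumours these 5 differed from control IgG by between -0.33 for Gsta4 and -0.15 for Fabp3. NonResponder array 14 was below the other NonResponder arrays for Gsta4 (6.97, against 10.22 to 12.12), Slc26a7, Avpi1 and Fabp3. Without it the 5 differed from control IgG by -0.02 for Gsta4, -0.03 for Slc26a7, -0.31 for Gpm6a, -0.20 for Avpi1 and 0.10 for Fabp3. The 12 named falls thus held 7 genes whose NonResponder difference was at least 0.5 times the Responder difference, also without array 14. None of the 12 differed between Responder and NonResponder tumours at an adjusted p under 0.05 in the 53 arrays. Without array 14 these 5 did: Gsta4 (-0.98, adjusted p = 0.0182), Slc26a7 (-0.95, adjusted p = 0.0168), Gpm6a (-0.61, adjusted p = 0.0475), Avpi1 (-0.72, adjusted p = 0.0344) and Fabp3 (-0.98, adjusted p = 0.012).

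A list of 11 genes that earlier results of these data had shown to fall, and which is no independent evidence of direction, had 9 falls and no rise here, 7 of the falls in every fit that left out 1 array. Gng8, a G protein gamma subunit in it, differed by -0.82 ± 0.21 (adjusted p = 0.00676). Among 13 glutathione and redox genes there were 2 falls (15.4%, against 22.1% of all genes) and 2 rises (15.4%, near the 15% of all genes). The falls were Gsta4 and the lipid peroxidase gene Gpx4 (-0.32 ± 0.11). Gsr, the glutathione reductase, rose by 0.41 ± 0.12.

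Pigment genes fell unevenly. Pmel, the fibril protein of melanosomes, was at 9.42 to 11.87 (median 11.20) in Responder arrays and 10.95 to 12.34 (median 11.82) in control IgG arrays, with 7 Responder arrays below all controls (-0.77 ± 0.22, adjusted p = 0.0116). Mlana, a melanosome protein that T cells recognise in human melanoma, was at 8.41 to 10.93 (median 9.68) in Responder arrays and 9.51 to 11.26 (median 10.48) in control IgG arrays (-0.72 ± 0.22, adjusted p = 0.017). Gpr143, a melanosome receptor, differed by -0.65 ± 0.19. Of 15 melanocyte and pigment genes 5 fell (33.3%, against 22.1% of all genes) and 1 rose (6.67%, against 15%). In every fit that left out 1 array 3 of the falls were called. Without the 9 arrays that stood apart 1 fall was called. It was not Pmel (adjusted p = 0.0537), Mlana (adjusted p = 0.0947) or Gpr143 (adjusted p = 0.123). Mlana also lost its call without the 3 fat-rich arrays (adjusted p = 0.0702) and with the spread of the 53 arrays (adjusted p = 0.0771). The rise was Sox10 (0.37 ± 0.14, adjusted p = 0.0382), which lost its call in 16 of the 31 fits that left out 1 array of either group (adjusted p up to 0.0755). Among 16 dedifferentiation and invasion genes 6 rose (37.5%, against 15% of all genes) and 1 fell (6.25%, against 22.1%). Zeb2, a transcription factor, rose by 0.41 ± 0.12 and Jun by 0.66 ± 0.23. Jun was not called after quantile normalization, without the 3 fat-rich arrays or without the 9 that stood apart (adjusted p = 0.0625, 0.0664 and 0.0652). In the last of these fits Zeb2 was not called either (adjusted p = 0.0896). Ccn1, a matricellular protein, fell by 0.47, with an adjusted p of 0.0509 without control IgG array 11. After quantile normalization 2 genes of the list were called higher and 2 lower, and without the 9 arrays that stood apart 3 were lower and none higher.

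Of the 2 driver genes of the model, Hgf was not called and Cdk4 was slightly lower. Hgf, the transgene's product and the ligand of Met, was at 11.22 to 12.99 (median 11.75) in Responder arrays and 11.10 to 12.68 (median 11.73) in control IgG arrays (0.09 ± 0.13, adjusted p = 0.595). Its difference was -0.03 without the 5 muscle-rich arrays, and a probe set cannot separate transgene from endogenous transcript here. Cdk4 was at 10.53 to 11.54 (median 11.31) in Responder arrays and 11.22 to 11.65 (median 11.55) in control IgG arrays (-0.26 ± 0.07, adjusted p = 0.0102). Its partner Ccnd1, cyclin D1, rose by 0.41 ± 0.13, with 0.12 and no call on the probe set of highest spread (adjusted p = 0.54). Rb1, the substrate of the pair, rose by 0.33 ± 0.09, although 1 further probe set of Rb1 was called lower. Of 11 driver pathway genes 3 rose (27.3%, against 15% of all genes) and 1 fell (9.09%, against 22.1%). All 4 were called in every fit that left out 1 array.

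Of 14 oxidative phosphorylation genes 7 fell (50%, against 22.1% of all genes) and none rose, by small amounts: Uqcrc2 of complex III by 0.40 and Sdhd of complex II by 0.17. Without the 3 fat-rich arrays 2 of them were called, and without the 9 arrays that stood apart none was. On the probe set of highest spread neither Uqcrc2 nor Sdhd was called (adjusted p = 0.132 and 0.565). Of 8 cytosolic ribosomal protein genes 3 fell (37.5%), among them Rps19 (-0.29 ± 0.08) and Rps14 (-0.16 ± 0.04). None of 12 cholesterol and isoprenoid synthesis genes was called (median difference -0.28). Of 17 proliferation genes 2 rose (11.8%, against 15% of all genes), neither in every fit that left out 1 array. Of 14 hypoxia and glycolysis genes 2 rose (14.3%, near the 15% of all genes) and 1 fell (7.14%, against 22.1%). Pfkfb3, a glycolytic regulator, rose by 0.64 ± 0.21 and Ankrd37 fell by 0.63. Pfkfb3 was not called without the 3 fat-rich arrays (adjusted p = 0.0578), and its other probe set differed by 0.04 (adjusted p = 0.751).

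None of 17 collagen and fibroblast matrix genes was called. Col1a1 was at 7.21 to 13.21 (median 9.88) in Responder arrays and 7.52 to 11.82 (median 9.32) in control IgG arrays (0.77 ± 0.52, adjusted p = 0.226), and Lox, the collagen crosslinker, at 5.77 to 11.87 (median 8.13) in Responder arrays and 6.43 to 11.20 (median 9.12) in control IgG arrays (-0.67 ± 0.49, adjusted p = 0.266). The top Responder array for both was 4. Of 12 TGF-beta response genes 4 rose (33.3%, against 15% of all genes), with Tgfb1 at 0.72 ± 0.22 and the pathway inhibitor Ski at 0.57 ± 0.17. The other probe set of Tgfb1 differed by 0.04 and was not called (adjusted p = 0.741). Of 12 matrix protease genes 3 rose (25%), Adamts1 (0.56 ± 0.14), Mmp2 (0.50 ± 0.15) and Mmp14 (0.41 ± 0.14). Without the 9 arrays that stood apart Ski, Mmp2 and Mmp14 were not called (adjusted p = 0.0507, 0.065 and 0.0654). In that fit 1 matrix protease gene was called higher and 2 lower. Mmp14 was also not called after quantile normalization (adjusted p = 0.0551) or without the 3 fat-rich arrays (adjusted p = 0.0872). Of 12 endothelial genes 1 rose (8.33%), the TGF-beta coreceptor Eng (0.38 ± 0.12). Eng was not called after quantile normalization (adjusted p = 0.0554) or without the 9 arrays that stood apart (adjusted p = 0.0594). Of 10 contractile genes 1 fell (10%), Tagln of smooth muscle (-0.78 ± 0.28, adjusted p = 0.0304). Tagln was not called without control IgG array 2 or 11 (highest adjusted p = 0.0577). Of 7 EGF family ligand genes 2 fell (28.6%, near the 22.1% of all genes): Tgfa (-0.30 ± 0.05) and Ereg (-0.50 ± 0.16). The other 2 probe sets of Tgfa were not called, at -0.09 and -0.03 (adjusted p = 0.207 and 0.703). Ereg lost its call after quantile normalization (adjusted p = 0.0846), without the 3 fat-rich arrays (adjusted p = 0.0544) and in the fit of 90 arrays (adjusted p = 0.0583).

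Skeletal muscle markers were high in a few arrays of both groups, and adipocyte markers lay above every control IgG array in Responder arrays 2, 3 and 5. The mean of 14 skeletal muscle genes ranged over 4.93 to 11.85 (median 5.18) in Responder arrays and 5.34 to 10.54 (median 5.71) in control IgG arrays, and 13 of 17 Responder arrays were below the lowest control. Its median difference was -0.99 with 1 member called, and -0.53 with 11 called without the 5 muscle-rich arrays. Ckm, the muscle creatine kinase, was at 5.88 to 12.92 (median 6.57) in Responder arrays and 6.54 to 12.55 (median 7.76) in control IgG arrays (-1.25 ± 0.61, adjusted p = 0.0998). The mean of 6 adipocyte genes ranged over 5.58 to 9.15 (median 6.04) in Responder arrays and 5.61 to 7.15 (median 6.08) in control IgG arrays. Fabp4, a fatty acid carrier of adipocytes, differed by -0.27 ± 0.37 (adjusted p = 0.569). Of 14 keratinocyte genes 6 fell (42.9%, against 22.1% of all genes), Krt6a by 0.29. The list means were 4.58 to 4.97 in Responder arrays and 4.68 to 4.94 in control IgG arrays. Among the 4549 genes of lowest mean level 1635 were called lower. Of 4 erythroid genes 2 fell (50%), of 10 mast cell and eosinophil genes 3 fell (30%), and of 11 lipid-laden macrophage genes 1 rose and 1 fell (9.09% each). After quantile normalization 1 keratinocyte gene was called lower, and no erythroid or mast cell and eosinophil gene was. The part of these tissues in the results above was not tested except by the fits without those arrays.

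A second comparison asked which of these differences also separate regressing from growing tumours under the same antibody. In a fit of the 53 arrays of the title series with a mean for each of 6 groups, 550 genes (3.02%) differed between Responder and NonResponder tumours, 110 (0.605%) higher and 440 (2.42%) lower. The comparison shares its Responder arrays with the main one, and that of NonResponder with control IgG tumours shares the control IgG arrays. No gene (0%) differed between NonResponder and control IgG tumours, with 948 at an unadjusted p under 0.05 and a smallest adjusted p of 0.432. Of the 12 named rises 7 were also higher in Responder than in NonResponder tumours: Cd3g (1.54), Ubd (1.87), Gbp8 (1.61), Ccl5 (1.28), Cxcr6 (1.42), Il12rb1 (1.30) and Ifng (1.21). The other 5 had adjusted p between 0.0544 for Nkg7 and 0.078 for Cd8b1. Cd274 differed by 0.54 with a 95% interval of 0.19 to 0.89 (adjusted p = 0.0641). NonResponder array 14 had Cd3g at 10.95, Cd74 at 13.88 and H2-Eb1 at 13.39, against 4.25 to 7.57, 7.65 to 12.25 and 7.18 to 11.19 in the other 13 NonResponder arrays. Without this array 4396 genes (24.2%) differed between Responder and NonResponder tumours, 1691 higher and 2705 lower, and all 12 named rises were among those higher. Cd3g then differed by 1.90 (adjusted p = 0.00359), Cd8b1 by 1.34 (adjusted p = 0.00471) and Cd274 by 0.65 (adjusted p = 0.00786). No gene differed between NonResponder and control IgG tumours without it either, with 1087 at an unadjusted p under 0.05.

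The count of calls between Responder and NonResponder tumours moved widely with other settings too. It was 6 with the dimmer genes left out, 88 after quantile normalization and 169 in a fit of the Responder and NonResponder arrays alone. It was 923 on the mean of probe sets, 2353 without arrays of low correlation, which include NonResponder array 14, 3026 after median centring and 7850 with array weights.

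**Figure D5:**
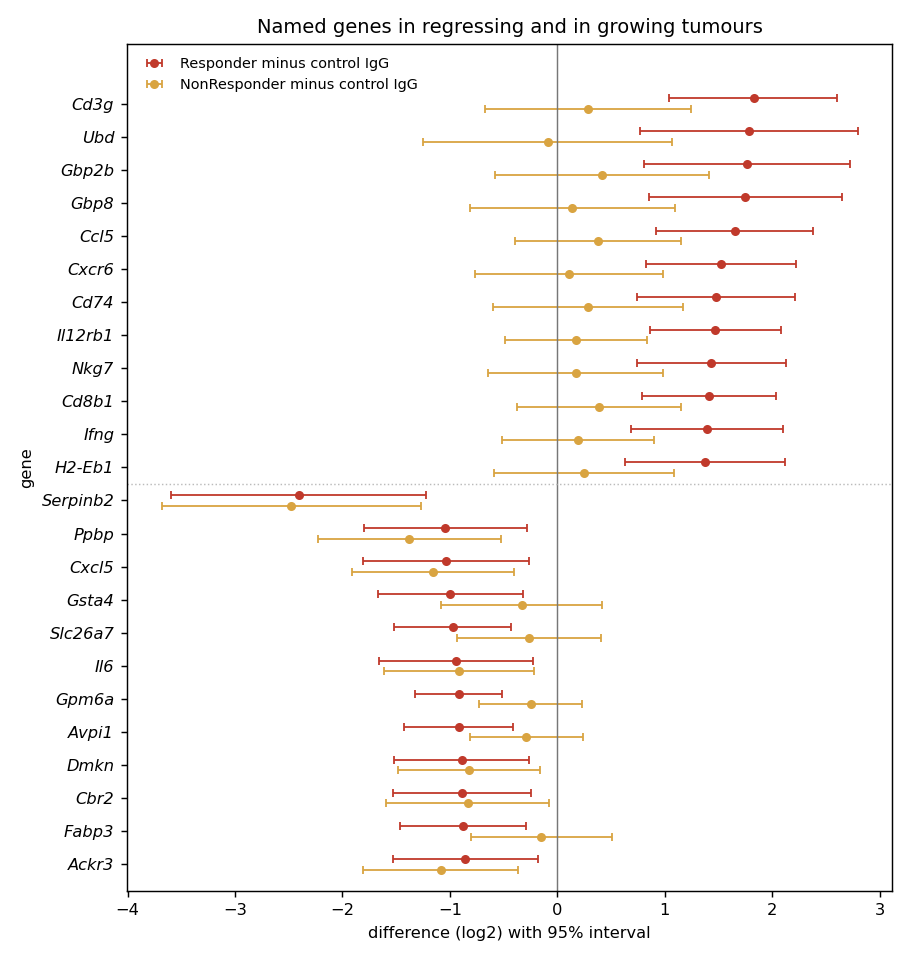
Log2 differences (horizontal axis) with 95% intervals for the 12 largest called rises and, below the dotted line, the 12 largest called falls. Red is Responder minus control IgG from the 31 arrays, yellow is NonResponder minus control IgG from the 53-array fit, and both share the control IgG arrays. NonResponder array 14 is included. For the rises the yellow points lie between -0.09 and 0.41 (-0.34 and 0.17 without that array), and for Serpinb2 both are near -2.4.

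The arrays outside the title series gave the same sign for the rises and a divided one for the falls. There, 10 Responder arrays and 8 control IgG arrays lie in different title series, so title series and treatment cannot be told apart and no test was made. All 12 named rises had the higher mean in the Responder arrays, with a difference of 2.86 for Cd3g and 3.01 for Gbp2b. Of the 12 falls 6 had the lower mean there. Gsta4 differed by -2.02 and Slc26a7 by -1.77, while Serpinb2 differed by 0.23, Cxcl5 by 0.90, Il6 by 0.17 and Ackr3 by 0.89. Stmn3 and Zswim2, named after their values were seen, differed there by 0.03 and -0.05.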

How the data were processed

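RNA of subcutaneous mouse melanoma allografts was hybridised to expression arrays, and 90 arrays are in the table used. The table holds log2 values that the authors deposited, made with RMA per the submitters' processing notes, which also name limma and give no version of either. It lists 45101 probe sets, of which 64 are controls, 34945 carry 1 gene symbol in the platform annotation, 932 carry several and 9160 are unlisted and stayed unnamed. For each of 18193 genes the probe set of highest mean over the 90 arrays was kept.

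Responder (17) and control IgG (14) arrays were compared with lmFit and eBayes of limma 3.58.1 in R 4.3.3, with Benjamini-Hochberg adjustment over all genes and calls at an adjusted p under 0.05. Responder minus NonResponder and NonResponder minus control IgG came from 1 fit of 53 arrays with 6 group means. Correlations used 100000 permutations, with 2e-05 the smallest p they can give (SciPy 1.17.1, pandas 2.3.3, Python 3.11.15). Plots were drawn with matplotlib 3.10.9. On simulated data with 200 of 18193 genes changed for the Responder and control IgG comparison, 81% were recovered at a log2 change of 0.5 and 97% at 1, with 8 false calls. The 200 changed genes are far fewer than the 6752 called here, and how many of those calls are false was not tested. The number of arrays limits the precision.

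Named genes were the 12 largest called rises and falls, without immunoglobulin or T cell receptor segments and unnamed transcripts, up to 4 members of each list by smallest p, any member called against its list, and Cd274, Pdcd1, Hgf and Cdk4. The members and the 42 lists (472 of 528 genes measured) were chosen with earlier results of these data known. Promoter windows are RefSeq sequence. Of the genes named by the rule, 85 have several probe sets, 39 of them with one on the other side of the threshold and 4 with one called the opposite way (Cd160, Lipe, Rb1 and Zap70). Alternatives were median centring, quantile normalization, dim genes left out, other probe set choices, array weights, other sets of arrays and each array left out, and NonResponder array 14 for the comparisons that use that group.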

Additional observations from a re-analysis of the deposited data

Results flagged for a closer look

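Of 109 of the genes named in the text, 20 differed between Responder and NonResponder tumours in the test of that difference itself, although both groups had the same antibody. Over all genes 3.02% did, and the named genes were mostly chosen by the comparison with control IgG, which shares the Responder arrays, so their share is no separate evidence. Without NonResponder array 14, whose lymphoid gene levels were high, 77 of the 109 differed, against 24.2% of all genes in that fit. Values are log2 differences, Responder minus NonResponder, from limma with adjusted p under 0.05. T cell and type 1 genes were higher in Responder tumours: Cd3g by 1.54, Cxcr6 by 1.42, Il12rb1 by 1.30, Ifng by 1.21 and Ikzf2 by 0.36. Chemokine genes were higher as well, with Cxcl9 at 1.39, Ccl5 at 1.28 and Ccl3 at 1.24. Interferon targets were higher, with Ubd at 1.87, Gbp8 at 1.61, Igtp at 0.74, Nlrc5 at 0.59, Gbp7 at 0.57, Irgm1 at 0.55 and Gbp3 at 0.47. The complement inhibitor gene Serping1 was higher by 1.23. Genes that were lower were Tgfa (-0.28), Siglech (-0.24), Pax5 (-0.24) and Zap70 (-0.19). Il12rb1 and Nlrc5 were called in 9 of 10 alternatives, missing the threshold with the dimmer genes left out (adjusted p = 0.0537 and 0.0528). Tgfa was called in 8 of 9 and missed it on the probe set of highest SD (adjusted p = 0.399). Each of the other 17 lost its call in at least 2 alternatives.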

How the results depend on the processing

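Against 6752 genes called, 2724 higher and 4028 lower, quantile normalization gave 3497, 1611 and 1886, dim genes left out 3121 with 871 lower, and array weights 10847, 4334 and 6513. Leaving out the 3 fat-rich arrays gave 3853, 1612 and 2241, and leaving out the 9 arrays that stood apart 3586, 1518 and 2068. With each array left out in turn, the counts ran from 4915 (without control IgG array 11) to 8417 (without control IgG array 7), 1983 to 3276 higher and 2932 to 5141 lower. Against 550 genes for Responder and NonResponder tumours, median centring gave 3026, quantile normalization 88, dim genes left out 6, the mean of probe sets 923, array weights 7850, no arrays of low correlation 2353, no NonResponder array 14 4396, and both groups alone 169. The mean of probe sets turned the sign for Zap70 (0.20), Cd160 (0.0573) and Fabp4 (0.0091), the probe set of highest SD for Zap70 (0.60), Cd160 (0.29) and Cd80 (0.0093), the 90-array fit for Hgf (-0.17), and the fit without the 5 muscle-rich arrays for Hgf (-0.0324). Without the 2 arrays farthest from the median Cd3g level, r was 0.547 (Col1a1, Responder), 0.50 (Cd274, control IgG) and 0.349 (Col1a1, control IgG), and it turned to 0.0118 for Pmel in control IgG arrays. The causes were not tested. All 12 named rises were called under every alternative that tested them, and Gbp2b, Gbp8 and Ifng were among the dim genes left out. No paired analysis was possible because the labels give no replicate numbers. Signal over background per probe set is not in the table used, so low values carry no detection call.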
